A study of Mus musculus with 2 samples.

Results

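The 10 genes described here carry glucose through the cell. They are Slc2a1 (the glucose transporter GLUT1), the hexokinases Hk1, Hk2 and Hk3, the regulatory enzyme gene Pfkfb3, the glycolytic enzymes Aldoa, Gapdh and Pkm, the lactate dehydrogenase gene Ldha and the lactate exporter gene Slc16a3 (MCT4). Each was taken by its symbol among the 31053 genes of the count tables, and 10 of 10 were found. Their UMIs were counted in mouse retinal cells of 2 libraries. The first came from mice with optic nerve injury that were given MSC-sEV, the treatment name of the labels, and the second from mice with the same injury that were given PBS. Both were taken at 2 weeks, per the sample titles, from C57BL/6 mice aged 6 to 8 weeks. Each library pooled the retinas of 6 mice, so there was 1 library per group and no measure of the spread between mice. The cells had been selected on magnetic beads against CD45, the surface protein of leukocytes, and the labels call them retinal immune cells. Most of them were nonetheless photoreceptors by their markers, as described next.

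Glycolysis splits glucose into pyruvate, and lactate dehydrogenase turns pyruvate into lactate, which leaves the cell through monocarboxylate transporters. Photoreceptors are known for making lactate even where oxygen is plentiful, and Müller glia, the main glia of the retina, for exchanging glucose and lactate with them. Activated macrophages and microglia are also known for high glycolysis. Several steps have more than one isozyme, each from its own gene, and cell types differ in which of them they use.

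After filtering, 2317 cells were analysed in the MSC-sEV library and 1344 in the PBS library, with medians of 2922 and 2596 UMIs per cell, and the libraries shared 0 barcodes. Classes were named from markers and carry the ending "-like". Rod-like cells numbered 1273 in MSC-sEV and 1010 in PBS, cone-like cells 48 and 76, Müller glia-like cells 52 and 87, bipolar cell-like cells 44 and 40, and microglia-like cells 202 and 40. The microglia-like class was divided by library, since 1 of its clusters held 202 MSC-sEV cells and 1 PBS cell and the other held 39 PBS cells alone. Monocyte or macrophage-like (206 cells), granulocyte-like (153), T cell or innate lymphoid cell-like (64) and migratory dendritic cell-like cells (50) were found in the MSC-sEV library, and the PBS library had 0 of 1344 cells in each, which allows a share of up to 0.223%. A further cluster of 207 MSC-sEV and 67 PBS cells met the naming rule of no class and is left out below. Median depth differed strongly between classes, from 1270 UMIs in the granulocyte-like cells of MSC-sEV to 20428 in its Müller glia-like cells, with 23829 in the 3 amacrine cell-like cells of PBS.

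Levels below are CPM, the UMIs of a gene scaled by all UMIs summed over the cells of a class in a library. Ranges in parentheses are 95% intervals and cover counting error only. The counts come from the 3′ ends of transcripts, so they separate genes but not splice forms such as the M1 and M2 forms of Pkm. Rod RNA was found in every class. Summed over 8 rod markers, it stood at 69.8% of the rod-like level in MSC-sEV cone-like cells and 90.8% in PBS ones, at 35.8% and 44.6% in Müller glia-like cells, and at 2.77% and 5.0% in microglia-like cells. For cones and Müller glia, levels are therefore read beside the level that this much rod RNA alone would bring, called the carried level.

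The stretches upstream of Hk2, Hk3, Ldha and Slc16a3 are shown as examples. The shares of these 4 genes within their families differed between microglia-like and rod-like cells, as did those of Slc2a1 and Pfkfb3, which are not printed. They are the 250 bases before a RefSeq start (GRCm38.p6), 5′ to 3′ on the strand of the gene. Hk2 lies at chr6:82774455-82774704 (minus strand), Hk3 at chr13:55021386-55021635 (minus), Ldha at chr7:46845554-46845803 (plus) and Slc16a3 at chr11:120948817-120949066 (plus). Capitals mark ACGTG, the core of the hypoxia response element, read on either strand (CACGT on the other), and in Hk3 also GGAAGT, a core bound by ETS factors, read as ACTTCC.
Hk2: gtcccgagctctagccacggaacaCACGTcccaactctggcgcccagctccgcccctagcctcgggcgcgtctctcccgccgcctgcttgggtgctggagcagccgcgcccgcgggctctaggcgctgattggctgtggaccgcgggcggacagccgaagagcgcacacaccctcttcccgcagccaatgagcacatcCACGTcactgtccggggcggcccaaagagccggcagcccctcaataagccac
Hk3: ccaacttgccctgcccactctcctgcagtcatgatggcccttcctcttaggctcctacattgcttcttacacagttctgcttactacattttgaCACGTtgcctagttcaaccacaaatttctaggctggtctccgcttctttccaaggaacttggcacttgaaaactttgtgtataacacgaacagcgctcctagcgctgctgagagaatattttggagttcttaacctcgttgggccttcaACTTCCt
Ldha: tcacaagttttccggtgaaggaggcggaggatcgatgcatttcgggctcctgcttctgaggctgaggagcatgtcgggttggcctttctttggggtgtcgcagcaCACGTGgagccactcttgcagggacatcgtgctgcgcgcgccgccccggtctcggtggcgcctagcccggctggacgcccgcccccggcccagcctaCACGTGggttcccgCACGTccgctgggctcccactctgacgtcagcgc
Slc16a3: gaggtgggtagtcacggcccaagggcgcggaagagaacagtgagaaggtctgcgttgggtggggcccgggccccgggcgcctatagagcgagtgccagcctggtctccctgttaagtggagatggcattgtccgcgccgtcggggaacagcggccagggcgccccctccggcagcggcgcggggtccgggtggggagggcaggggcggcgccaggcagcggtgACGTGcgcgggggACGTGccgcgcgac
The Ldha window held 5 matches to ACGTG, counting both strands of the palindrome CACGTG, while Hk2 and Slc16a3 held 2 each and Hk3 held 1. For Ldha the start with the most matches was printed, and the window of its second start held 0. Over all members, 10 of 16 windows and 8 of 10 genes held the motif, the exceptions being Hk1 and Gapdh, against 16.6% of all 32851 windows and 18.5% of 27025 genes. GGAAGT was found in 2 member windows, those of Hk1 and Hk3, against 19.7% of all windows. TAATCC (or GGATTA), the motif of the photoreceptor factor CRX, was in 1 window, a second start of Ldha, against 6.25% of all windows. These matches describe letters only.

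**Figure D1:**
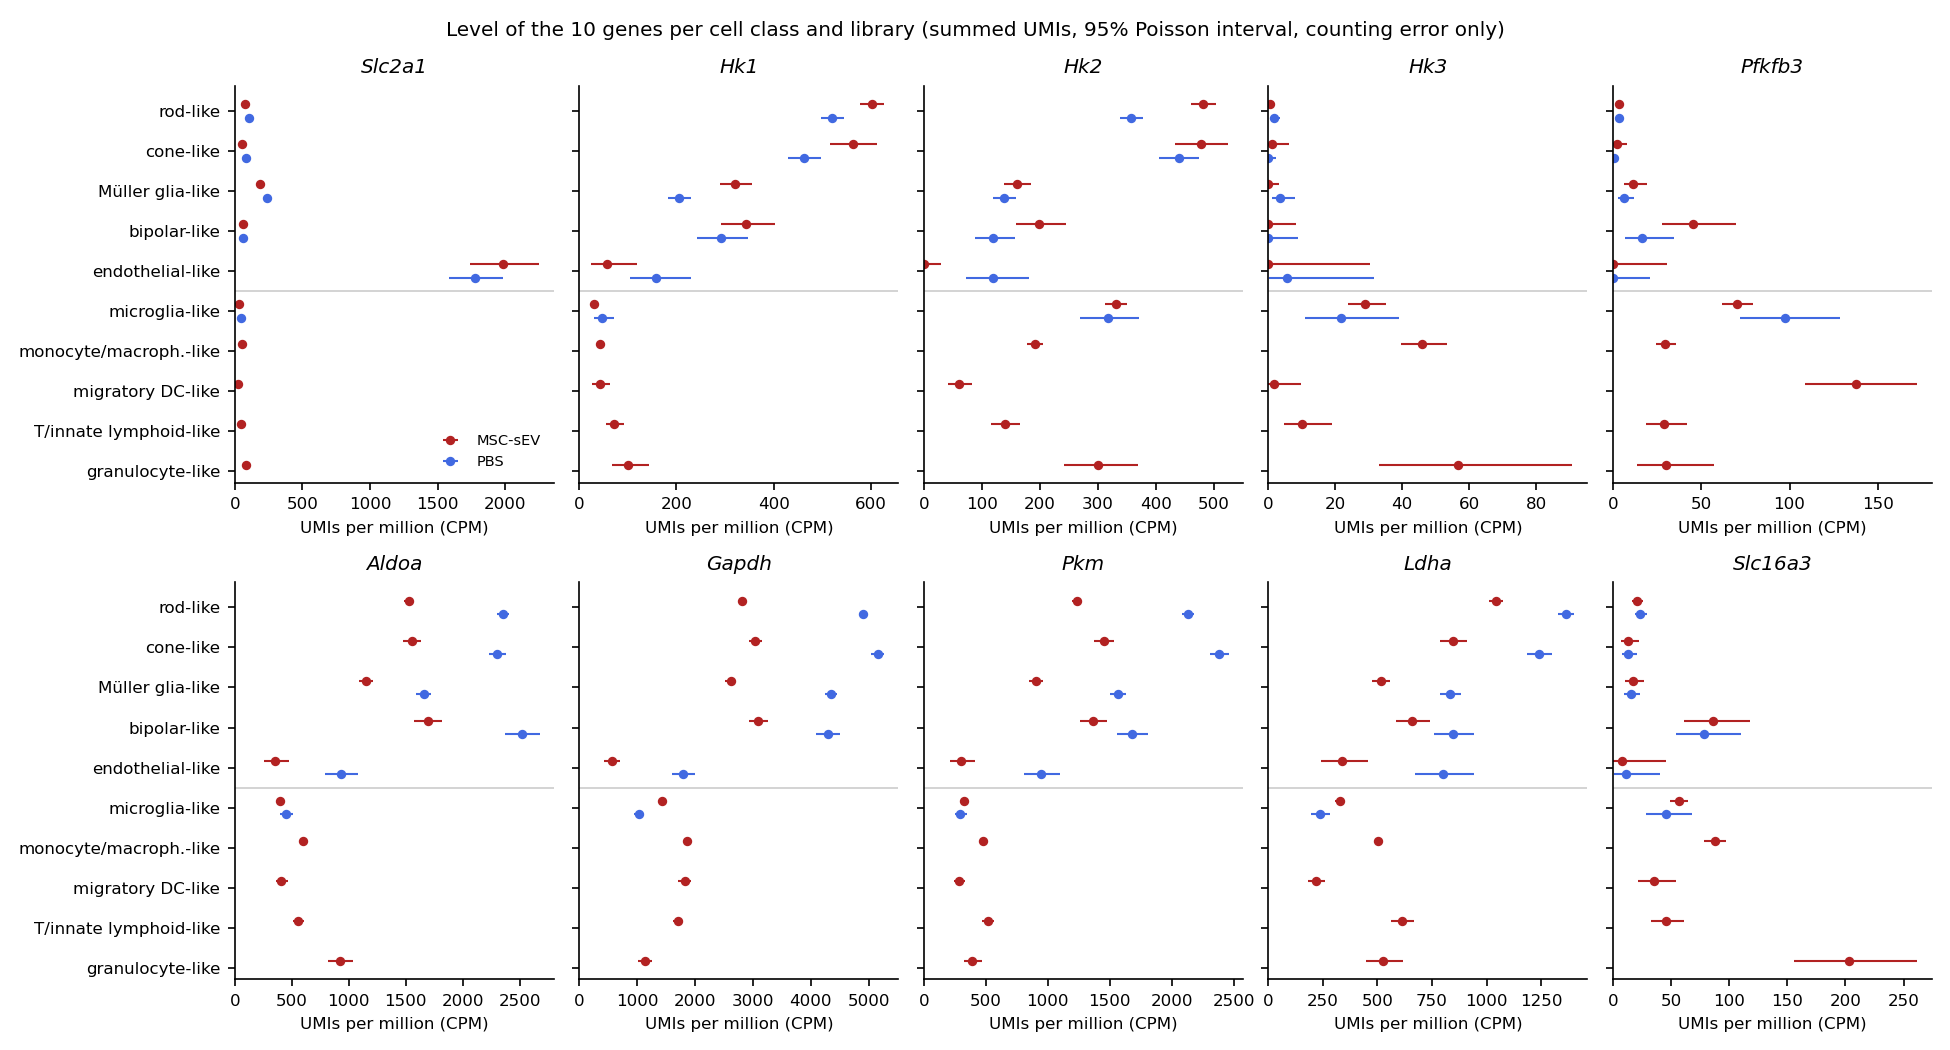
Level of each of the 10 genes in CPM (x axis, starting at 0, a separate scale for each gene) in 10 cell classes, with MSC-sEV above PBS in each class and 95% Poisson intervals. Hk1, Aldoa, Gapdh and Pkm were higher in rod-like, cone-like and bipolar cell-like cells than in microglia-like cells, Hk3 had its higher values among leukocytes, Pfkfb3 had its highest in migratory dendritic cell-like and microglia-like cells, and Slc2a1 reached 1979 and 1774 CPM in endothelial cell-like cells.

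Slc2a1, which brings glucose into the cell, had its highest level in endothelial cell-like cells. There it stood at 1979 CPM in MSC-sEV (1737 to 2246, 10 cells) and 1774 CPM in PBS (1583 to 1982, 21 cells). Müller glia-like cells came next with 189 CPM (165 to 216) in MSC-sEV and 239 CPM (214 to 265) in PBS, against carried levels of 27.6 and 46.5 CPM. Most of the glial Slc2a1 thus lay above what rod RNA would bring. Rod-like cells had 77.1 CPM in MSC-sEV and 104 CPM in PBS, and cone-like cells 55.8 and 80.4 CPM, close to their carried levels of 53.9 and 94.5 CPM. Müller glia-like cells were thus 2.45-fold above rod-like cells in the MSC-sEV library and 2.29-fold above them in the PBS library. After each cell was thinned to 1000 UMIs, a Slc2a1 UMI was seen in 22.4% of MSC-sEV and 32.9% of PBS Müller glia-like cells, against 6.78% and 10.3% of rod-like cells. In microglia-like cells the level was lowest of these classes, at 28.7 and 49.6 CPM.

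Within the family of glucose transporters (Slc2a1, Slc2a3, Slc2a4, Slc2a5 and Slc2a6), Slc2a1 gave nearly all UMIs of rods and Müller glia and a minority of those of microglia. Its share was 96.4% in MSC-sEV and 96.5% in PBS rod-like cells, and 94.3% and 96.1% in Müller glia-like cells. In microglia-like cells it was 24.4% (20.4 to 28.8) and 26.9% (18.2 to 37.1). The rest of the microglial family differed between the libraries. Slc2a5, the fructose transporter gene that marks microglia, gave 31.1% (26.7 to 35.8) in MSC-sEV and 68.8% (58.4 to 78.0) in PBS, whereas Slc2a6 gave 38.8% (34.1 to 43.6) and 3.23% (0.67 to 9.14), the last from 3 UMIs. In granulocyte-like cells Slc2a3, the neuronal and leukocyte transporter GLUT3, gave 46.4% of 56 UMIs. Bipolar cell-like cells also divided the family between Slc2a1 and Slc2a3, with 50.0% of the UMIs from Slc2a1 in MSC-sEV and 44.6% in PBS.

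The hexokinases trap glucose in the cell as its phosphate. Hk1 is the widespread form, Hk2 the inducible form known in photoreceptors, and Hk3 a form of myeloid cells. Hk1 had 602 CPM (577 to 627) in MSC-sEV and 520 CPM (498 to 544) in PBS rod-like cells. Microglia-like cells had 31.3 and 47.7 CPM, so that rod-like cells were 19.2-fold above them in MSC-sEV and 10.9-fold in PBS. Hk2 did not separate these classes in that way. It had 482 CPM (460 to 505) in MSC-sEV and 358 CPM (339 to 378) in PBS rod-like cells, and 331 CPM (313 to 351) and 318 CPM (270 to 371) in microglia-like cells. Cone-like cells had 477 and 439 CPM of Hk2, above the carried levels of 337 and 325 CPM. Granulocyte-like cells reached 300.3 CPM (241 to 369), monocyte or macrophage-like cells 192 CPM and migratory dendritic cell-like cells 60.1 CPM.

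Hk3 was almost absent from neural classes. Rod-like cells gave 2 UMIs in MSC-sEV and 6 in PBS, and cone-like cells 1 and 0. Microglia-like cells had 29.0 CPM (23.7 to 35.2) in MSC-sEV and 21.8 CPM (10.9 to 39.1) in PBS, where there were 11 UMIs, and monocyte or macrophage-like cells 46.1 CPM (39.6 to 53.3). A Hk3 UMI was seen in 33.7% of MSC-sEV and 25.0% of PBS microglia-like cells, whose cells had a median of 14979 and 9875 UMIs. In cone-like cells, at the like depths of 13364.5 and 11549 UMIs, the shares were 2.08% and 0%. In the granulocyte-like class Hk3 stood at 56.7 CPM (33.0 to 90.8), from 17 UMIs in 6 of 153 cells.

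As a share of all hexokinase UMIs, Hk2 gave 44.4% (42.9 to 46.0) in MSC-sEV and 40.6% (38.9 to 42.3) in PBS rod-like cells, and 45.8% and 48.7% in cone-like cells. In microglia-like cells it gave 84.6% (82.6 to 86.5) and 82.1% (75.9 to 87.2). Microglia-like cells thus used mostly Hk2, whereas Hk1 gave the larger part over all rod-like cells. The rod-like clusters differed in this. Cluster 0 had more Hk2 than Hk1, at 584 and 519 CPM in MSC-sEV and 554 and 415 CPM in PBS, and cluster 1 had less, at 298 and 717 CPM in MSC-sEV and 319 and 649 CPM in PBS. Among the classes of the MSC-sEV library alone, the Hk2 share was 68.4% in monocyte or macrophage-like, 65.7% in granulocyte-like, 63.0% in T cell or innate lymphoid cell-like and 56.7% in migratory dendritic cell-like cells. Hk3 added 16.4% (14.3 to 18.7) in monocyte or macrophage-like cells and 7.41% (6.09 to 8.92) in MSC-sEV microglia-like cells.

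**Figure D2:**
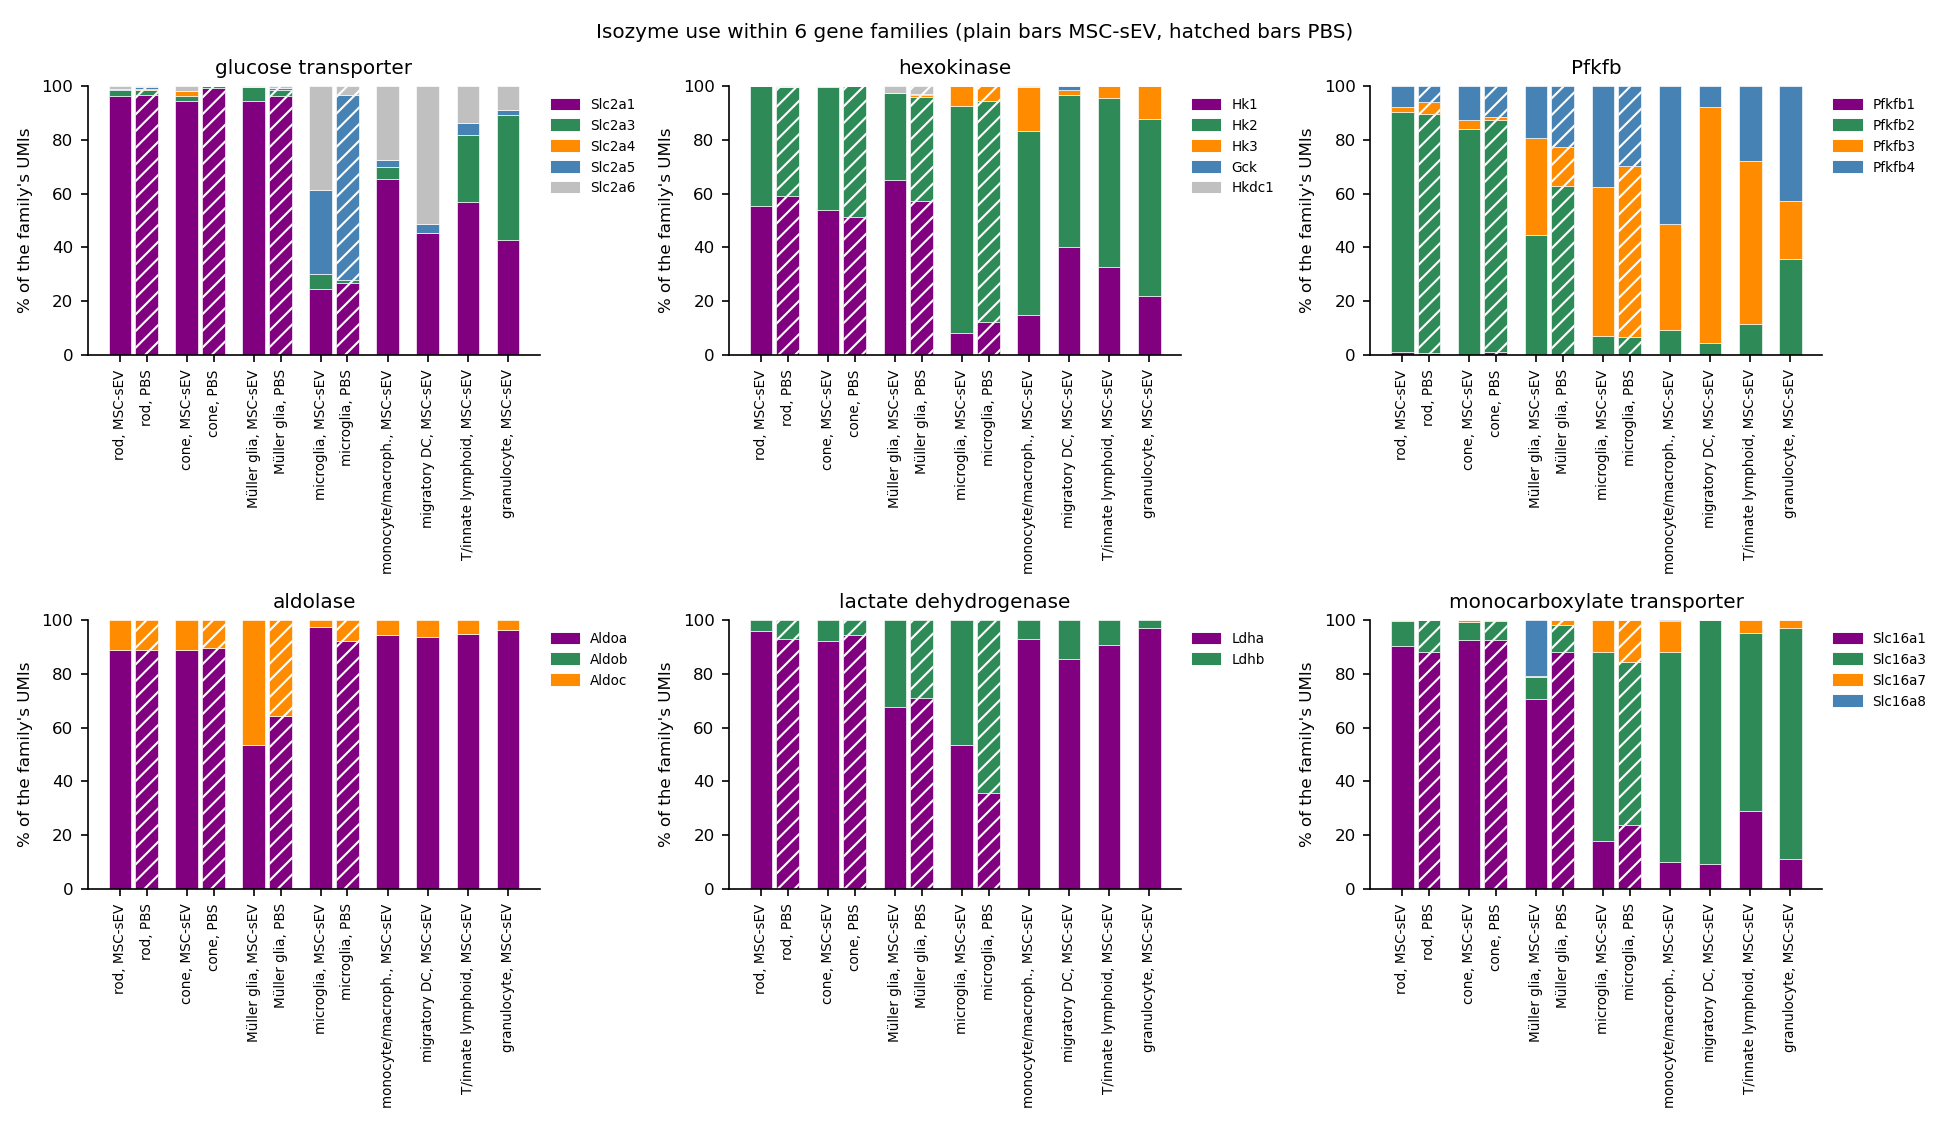
Share of each gene in the UMIs of its family (y axis, percent) in 8 cell classes, with plain bars for MSC-sEV and hatched bars for PBS. Hk2 exceeds 80% of hexokinase UMIs in both bars of the microglia-like class, Pfkfb2 exceeds 80% in rod-like and cone-like cells, and Slc16a3 is the main monocarboxylate transporter of the 5 leukocyte classes.

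Pfkfb3 makes the fructose bisphosphate that activates phosphofructokinase and is a known accelerator of glycolysis. In microglia-like cells it had 70.2 CPM (61.7 to 79.5) in MSC-sEV and 97.3 CPM (72.0 to 129) in PBS, against 3.39 and 3.48 CPM in rod-like cells. The microglial level was 20.7-fold (11.9 to 39.5) above that of rods in MSC-sEV and 28.0-fold (14.9 to 56.2) in PBS. The level in migratory dendritic cell-like cells was 138 CPM (109 to 172). Monocyte or macrophage-like cells had 29.8 CPM, granulocyte-like cells 30.0 CPM and T cell or innate lymphoid cell-like cells 28.8 CPM. Bipolar cell-like cells were not below these, with 45.3 CPM (27.7 to 69.9) in MSC-sEV and 16.7 CPM (6.72 to 34.4) in PBS. Photoreceptors used another gene of the family. Pfkfb2 gave 89.0% of Pfkfb UMIs in MSC-sEV and 88.9% in PBS rod-like cells, where Pfkfb3 gave 2.17% and 4.39%. In microglia-like cells Pfkfb3 gave 55.3% (50.6 to 60.0) and 63.6% (51.9 to 74.3), with most of the rest from Pfkfb4, which gave 37.6% and 29.9%. Pfkfb4 exceeded Pfkfb3 in monocyte or macrophage-like cells, with 51.2% against 39.7% of 295 UMIs.

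Aldoa, Gapdh and Pkm encode enzymes of the middle and last steps of glycolysis. All 3 were higher in rod-like than in microglia-like cells in both libraries. Gapdh, a common reference gene, had 2813 CPM (2760 to 2867) in MSC-sEV and 4904 CPM (4833 to 4976) in PBS rod-like cells, against 1422 CPM (1383 to 1462) and 1026 CPM (939.9 to 1119) in microglia-like cells. Pkm had 1234 and 2130 CPM in rod-like cells and 325 and 296 CPM in microglia-like cells. Aldoa had 1526 and 2353 CPM in rod-like cells and 398 and 451 CPM in microglia-like cells. Cone-like cells had levels close to those of rods for these genes, such as 1455 CPM of Pkm in MSC-sEV and 2384 CPM in PBS, against carried levels of 862 and 1934 CPM. The few cone-like cells poor in rod markers (below 10% of the rod-like level, a split made after the values had been seen), 4 of 48 in MSC-sEV and 5 of 76 in PBS, had less Gapdh and Aldoa than rods. Gapdh was at 1624 CPM (1253 to 2070) in MSC-sEV and 1830 CPM (1396 to 2355) in PBS among them, and Aldoa at 750 CPM (506 to 1070) and 854 CPM (567 to 1234). Within the aldolases, Aldoa gave 88.8% and 88.9% of UMIs in rod-like cells. Müller glia-like cells differed, since Aldoc, the aldolase of brain astrocytes, gave 46.3% (44.3 to 48.3) there in MSC-sEV and 35.7% (34.1 to 37.2) in PBS.

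Ldha encodes the lactate dehydrogenase subunit that favours the making of lactate, and Ldhb the one that favours its use. Ldha had 1044 CPM (1011 to 1076) in MSC-sEV and 1363 CPM (1326 to 1401) in PBS rod-like cells, and 515 and 833 CPM in Müller glia-like cells, where the carried levels were 373 and 608 CPM. Microglia-like cells had 326 CPM (308 to 346) and 238 CPM (198 to 285). Rods held nearly only Ldha, with 96.0% (95.3 to 96.5) of both genes' UMIs in MSC-sEV and 92.9% (92.2 to 93.6) in PBS. In microglia-like cells the Ldha share was 53.4% (51.3 to 55.6) in MSC-sEV and 35.6% (30.5 to 41.0) in PBS, from 2167 and 337 UMIs of the pair. Monocyte or macrophage-like cells stood apart from microglia at 92.9%, and granulocyte-like cells had 96.9%. Ldha was thus the main gene of the pair in rod-like, monocyte or macrophage-like and granulocyte-like cells alike.

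Slc16a3 encodes the transporter known for lactate export from glycolytic cells, and Slc16a1 (MCT1) the widespread one. Rod-like cells had 20.6 CPM (16.3 to 25.7) of Slc16a3 in MSC-sEV and 23.6 CPM (18.9 to 29.0) in PBS. Microglia-like cells had 56.7 CPM (49.1 to 65.0) and 45.7 CPM (29.0 to 68.5). Among leukocytes of the MSC-sEV library, granulocyte-like cells had 204 CPM (156 to 261) and monocyte or macrophage-like cells 87.6 CPM. Bipolar cell-like cells had 86.0 and 78.8 CPM, above the other neural classes in both libraries. As a share of the monocarboxylate transporters Slc16a1, Slc16a3, Slc16a7 and Slc16a8, Slc16a3 gave 9.45% in MSC-sEV and 11.9% in PBS rod-like cells, where Slc16a1 gave 90.2% and 87.9%. In microglia-like cells the Slc16a3 share was 70.3% (64.6 to 75.5) and 60.5% (43.4 to 76.0). It was 78.4% in monocyte or macrophage-like cells and 85.9% in granulocyte-like cells.

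The classes were also compared by counting members over both libraries. A gene was counted where it had at least 20 UMIs and differed at least 2-fold in the same direction in both libraries. Of 9 members so counted between rod-like and Müller glia-like cells, Hk2 was higher in rods and Slc2a1 lower, against 7.24% and 16.4% of all genes. Between rod-like and cone-like cells, 0 of 8 members were 2-fold higher in rods and 0 were 2-fold lower, against 1.78% and 2.94% of all genes. In microglia-like against rod-like cells, 1 of 9 members was higher (Pfkfb3) and 5 were lower (Aldoa, Hk1, Ldha, Pkm and Slc2a1), against 16.8% and 22.4% of all genes. Müller glia-like cells were above microglia-like cells for 4 of 9 members (Aldoa, Hk1, Pkm and Slc2a1) and below them for 3 (Hk2, Pfkfb3 and Slc16a3), against 23.0% and 12.7% of all genes. The count between microglia and rods changed when the cells of the highest doublet scores were left out and the rest clustered anew. The microglia-like class then held 332 MSC-sEV and 120 PBS cells, 145 and 63 of them from the unnamed cluster, and 1 member in place of 5 was lower. The part of the cells left out and that of the cells added were not tested apart.

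Müller glia-like cells held cells poor and cells rich in rod markers, and the levels of the members differed between them. The split was made after the values had been seen, at 10% of the rod-like level of the rod markers. It put 40 of 52 MSC-sEV and 40 of 87 PBS cells among the rod-poor ones, where rod markers stood at 2.25% and 2.64% of the rod-like level. In these cells Hk1 was at 73.9 CPM (53.5 to 99.5) in MSC-sEV and 55.3 CPM (36.1 to 81.0) in PBS, and Hk2 at 27.5 CPM (15.7 to 44.6) and 38.3 CPM (22.7 to 60.5). The rod-rich glia-like cells had 580 and 277 CPM of Hk1, and 299 and 186 CPM of Hk2. Rod-poor cells thus held little of either hexokinase, and the values of the whole class, 160 and 138 CPM of Hk2, were close to the carried levels of 172 and 160 CPM. Slc2a1 went the other way, with 253 CPM (213 to 297) in MSC-sEV and 321 CPM (272 to 377) in PBS rod-poor cells, against 122 and 199 CPM in rod-rich cells. Gapdh stayed abundant in rod-poor cells, with 1941 and 2686 CPM. Pkm stood at 429 and 770 CPM there and Ldha at 338 and 270 CPM.

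Isozyme use in the rod-poor glia-like cells also lay further from that of rods than in the whole class. Ldhb gave 45.9% (40.7 to 51.2) of lactate dehydrogenase UMIs in MSC-sEV and 62.6% (57.3 to 67.8) in PBS, and Aldoc gave 61.5% and 63.8% of aldolase UMIs. Hkdc1, a hexokinase-like gene, gave 14.3% of 70 and 15.4% of 52 hexokinase UMIs, where rod-like cells had 0.048% and 0.212%. Slc16a1 was the main monocarboxylate transporter at 97.9% in PBS. In MSC-sEV it gave 54.8%, beside 38.5% from Slc16a8, a transporter of the retinal pigment epithelium. All 52 Slc16a8 UMIs lay in 2 cells, which also held 1722 UMIs of pigment epithelium markers, 5 of 6 markers detected, among their 16527 UMIs. With the rod-poor cells in place of the whole class, 5 members in place of 1 were at least 2-fold higher in rods, and 1 in place of 4 was higher in Müller glia than in microglia.

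**Figure D3:**
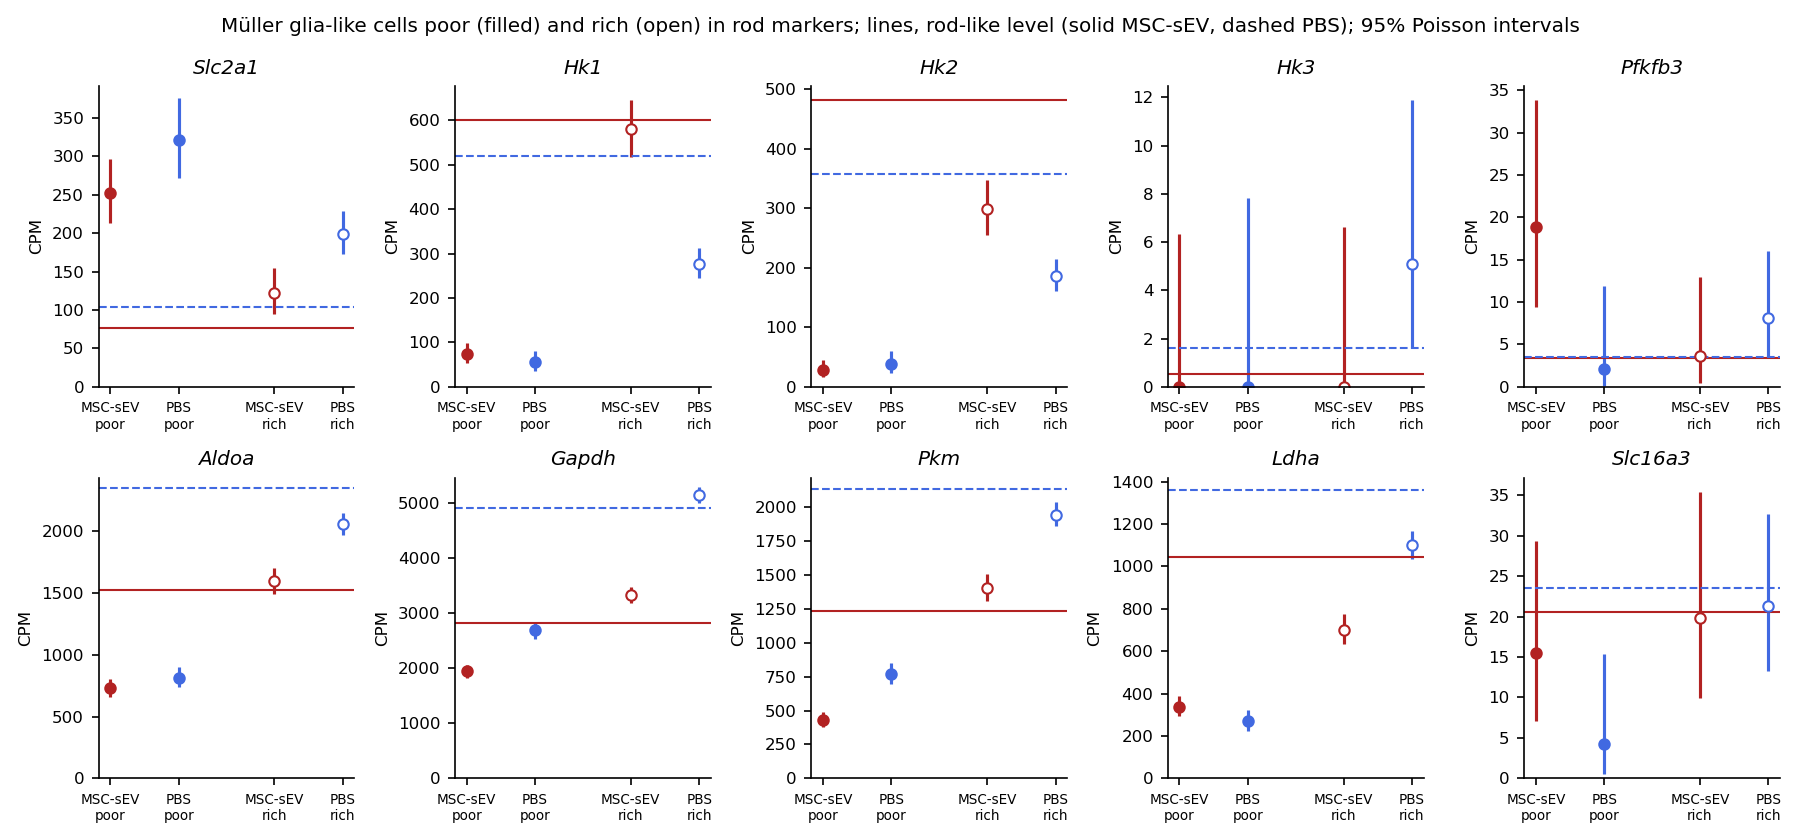
Level of each gene in CPM (y axis, starting at 0) in Müller glia-like cells poor (filled points) and rich (open points) in rod markers, MSC-sEV left of PBS, with 95% Poisson intervals and lines at the rod-like level of each library. Hk1 and Hk2 lie below 100 CPM in the rod-poor cells of both libraries, and Slc2a1 lies above the rod-like lines.

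Between the libraries, Gapdh, Pkm, Aldoa and Ldha were lower in MSC-sEV than in PBS over all rod-like cells, and Hk1 and Hk2 were not. In rod-like cells the ratio of MSC-sEV over PBS was 0.57 (0.56 to 0.59) for Gapdh, 0.58 (0.56 to 0.60) for Pkm, 0.65 (0.63 to 0.67) for Aldoa and 0.77 (0.73 to 0.80) for Ldha, from the levels given above. It was 0.74 (0.63 to 0.86) for Slc2a1. For Hk1 it was 1.16 (1.09 to 1.23) and for Hk2 1.35 (1.25 to 1.45). None of these reached 2-fold in either direction. Of 9 members with at least 20 UMIs, 0 were 2-fold higher and 0 were 2-fold lower, against 12.5% and 5.71% of 10643 genes, and 2 of 9 lay above a ratio of 1. The median log2 ratio was -0.39 over the members and 0.22 over all genes. Scaling by the trimmed mean of all genes (TMM) takes 0.17 off each log2 ratio in rod-like, 0.28 in cone-like and 0.13 in Müller glia-like cells, and a shift of -0.09 applies in microglia-like cells. It turned the log2 ratio of Hk2 to -0.17 and that of Hk1 to -0.0026 in cone-like cells and turned neither in rod-like cells. Before this scaling, the log2 ratio of Hk1 in rod-like cells was 0.21, close to the 0.22 over all genes. Hk2 had no firm direction in cone-like, Müller glia-like or microglia-like cells. In cone-like cells its log2 ratio was also -0.18 thinned to 1000 UMIs, beside -0.051 for Hk1, and -0.90 with rod RNA taken off, and in Müller glia-like cells, at 0.21 over the class, it was -0.71 by the mean of each cell's CPM.

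Rod-like cells fell into 6 clusters that the libraries filled unequally, so each ratio was also taken within a cluster. In 5 of them the log2 ratio of Gapdh lay between -0.46 and -0.33, that of Pkm between -0.62 and -0.44, and that of Hk1 between 0.15 and 0.32. Over the class they were -0.80, -0.79 and 0.21, so the gaps of Gapdh and Pkm were smaller within each of the 5. Their direction held in all 5. The ratio of Hk1 stayed above 1, but its interval crossed 1 in clusters 1 (0.94 to 1.30) and 4 (0.91 to 1.63). Hk2 did not keep 1 direction. Its log2 ratio was 0.08, -0.09, 0.14, -0.05 and 0.23 in clusters 0, 1, 2, 4 and 11, against 0.43 over the class. Clusters 0 and 4 had the higher Hk2 levels, 584 and 553 CPM in MSC-sEV and 554 and 574 CPM in PBS. Cluster 0 held 579 of the MSC-sEV and 119 of the PBS rod-like cells. In cluster 1, with 272 and 343 cells, Hk2 was at 298 CPM in MSC-sEV and 319 CPM in PBS. Cluster 5, led by the haemoglobin gene Hbb-bs, held 39 MSC-sEV and 189 PBS cells and had the widest gaps, with log2 ratios of -1.80 for Gapdh and -2.06 for Ldha. There Hk1 and Hk2 were lower as well, at -0.78 and -0.88, the MSC-sEV side from 31 and 19 UMIs. The median over all 6812 genes of cluster 5 was also low, at -0.60, and the values of Hk1 and Hk2 were near it. Median mitochondrial counts also differed, at 2.47% in MSC-sEV and 5.13% in PBS rod-like cells, and their part in these ratios was not tested.

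Taken whole, the cone-like and Müller glia-like classes also had ratios below 1 for these enzymes. In cone-like cells the ratio was 0.59 (0.56 to 0.62) for Gapdh, 0.61 for Pkm, 0.67 for Aldoa and 0.68 (0.63 to 0.74) for Ldha, and for Hk2 it was 1.09 (0.96 to 1.23). Of 8 cone members counted, 0 were 2-fold higher and 0 lower, against 11.0% and 2.15% of genes, with a median log2 ratio of -0.54 over members and 0.22 over all genes. Rod markers were at unequal levels in the 2 cone groups, as given above. In the 4 and 5 rod-poor cone-like cells the ratio was 0.60 (0.38 to 0.93) for Pkm, while the intervals of Gapdh at 0.89 (0.62 to 1.28), Aldoa at 0.88 (0.51 to 1.52) and Ldha at 1.04 (0.58 to 1.91) crossed 1. With rod RNA taken off the class, the log2 ratios of Aldoa and Ldha turned to 0.33 and 4.03. In PBS the Ldha level of 1241 CPM nearly equalled its carried level of 1237 CPM. The 4.03 thus rests on a very small remainder and gives no size of a difference. Aldoa in PBS was at 2304 CPM against a carried 2136 CPM. In Müller glia-like cells the ratio was 0.60 (0.58 to 0.63) for Gapdh, 0.58 for Pkm and 0.62 (0.56 to 0.68) for Ldha, and it was 1.56 (1.34 to 1.83) for Hk1. Of 9 members 0 were 2-fold higher and 0 lower, against 10.2% and 4.78% of genes, and the medians were -0.34 over members and 0.14 over all genes. In the rod-poor glia-like cells Gapdh had a ratio of 0.72 (0.67 to 0.78) and Pkm of 0.56 (0.47 to 0.66). Ldha did not keep its direction there, at 1.25 (0.997 to 1.58). Aldoa stood at 0.89 (0.77 to 1.03), and Hk2 at 0.72 (0.34 to 1.49) from 16 and 18 UMIs. The interval of Hk1 crossed 1 in the rod-poor cells, at 1.34 (0.80 to 2.26). In the rod-rich cells its ratio was 2.10 (1.78 to 2.47). Those were 12 MSC-sEV cells at a median of 50007.5 UMIs and 47 PBS cells at 12465 UMIs, and the part of depth was not tested.

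Microglia-like cells did not share the lower Gapdh. Its ratio was 1.39 (1.27 to 1.52), and that of Ldha was 1.37 (1.13 to 1.67), whereas Slc2a1 had 0.58 (0.37 to 0.94) from 102 and 25 UMIs. For Hk2 the ratio was 1.04 (0.88 to 1.24), for Pfkfb3 0.72 (0.53 to 1.00) and for Hk3 1.33 (0.71 to 2.75), so these intervals reached or crossed 1. All 10 members had 20 UMIs here, with 0 at 2-fold higher and 0 at 2-fold lower, against 12.6% and 7.21% of 9920 genes, and medians of 0.10 over members and 0.05 over all genes. The class held different clusters in each library. Without the cells of the highest doublet scores the members' median turned to -1.16, with log2 ratios of -1.11 for Gapdh and -1.22 for Ldha. Cells of the unnamed cluster also entered the class under the stricter cell filter, at resolution 2.0, with pathway genes among the variable genes and by marker score, and there the log2 ratio of Gapdh stayed above 0. The log2 ratio of Ldha was also below 0 with cells classed by marker score, at -0.067, and thinned to 1000 UMIs, at -0.15. Bipolar cell-like cells, with 44 and 40 cells, had ratios of 0.72 (0.67 to 0.77) for Gapdh and 2.71 (1.10 to 7.58) for Pfkfb3, which had 20 MSC-sEV and 7 PBS UMIs. Their ratio for Hk2 was 1.67 (1.17 to 2.41), from 88 and 50 UMIs. Within the bipolar cell-like cluster that held 85 and 42 of these UMIs it was 1.39 (0.95 to 2.06). In endothelial cell-like cells, with 10 and 21 cells, 6 of 7 counted members were at least 2-fold lower, Gapdh at 0.31 (0.24 to 0.41) among them. The median log2 ratio was -1.46 over these members and 0.04 over all 2735 genes, whose share past 2-fold was not computed. Rod markers stood at 0.756% of the rod-like level there in MSC-sEV and 21.9% in PBS, and their part was not tested.

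**Figure D4:**
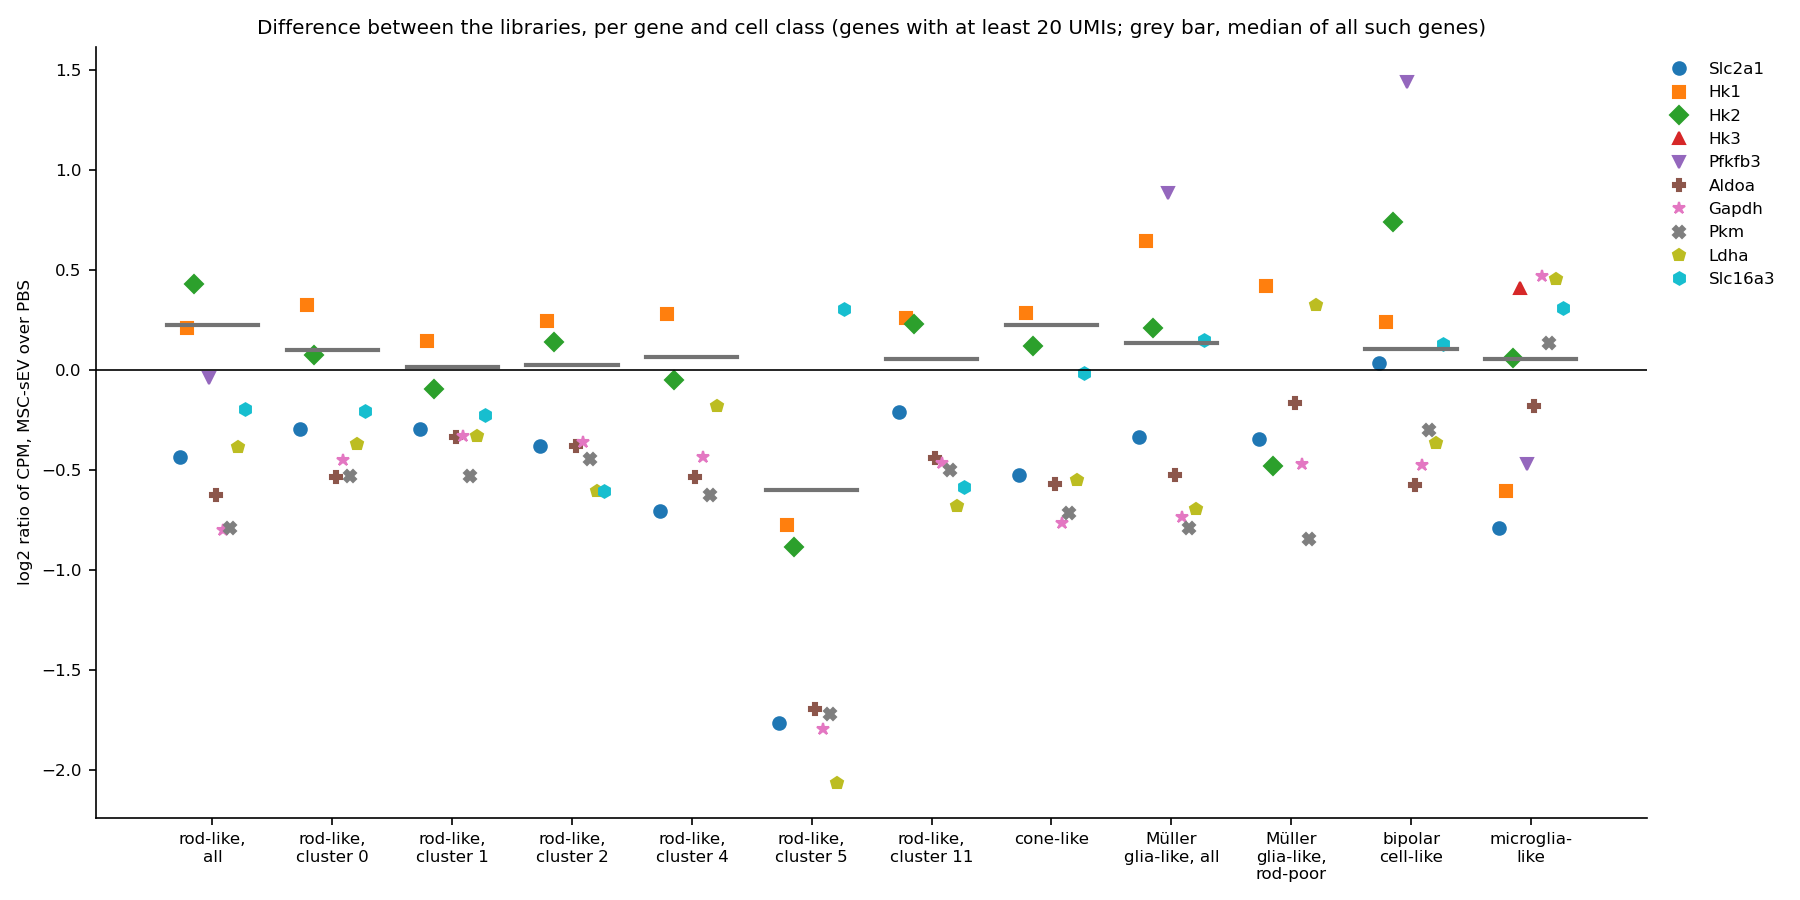
Log2 ratio of CPM, MSC-sEV over PBS (y axis), of members with at least 20 UMIs in each class and in 6 rod-like clusters, 1 symbol per gene, with grey bars at the median of all genes where it was computed. Gapdh and Pkm lie below 0 in the neural classes, Gapdh lies above 0 in microglia-like cells, and Hk2 lies near 0 within the rod-like clusters other than cluster 5, whose values reach down to -2.06.

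Other genes of the pathway were read from a list of 42. In rod-like cells 30 of them had at least 20 UMIs, of which 3 were at least 2-fold higher and 3 at least 2-fold lower in MSC-sEV, against the 12.5% and 5.71% of all genes given above. Those lower included Ldhb, at 0.42 (0.35 to 0.51), and Txnip, a brake on glucose uptake, at 0.36 (0.18 to 0.68) from 14 and 38 UMIs. Epas1, a hypoxia-inducible factor gene, was higher at 2.46 (2.07 to 2.92), with 125 CPM in MSC-sEV and 50.9 CPM in PBS, and Pfkfb4 at 2.49 (1.41 to 4.56). These ratios are over all rod-like clusters, which the libraries filled unequally. Within clusters, 2-fold higher and lower genes were 2 and 2 of 27 (cluster 0), 2 and 0 of 23 (cluster 1) and 0 and 0 of 24 (cluster 2). They were 0 and 1 of 19 in cluster 4, 1 and 12 of 26 in cluster 5 and 0 and 0 of 23 in cluster 11. Shares over all genes were not computed within clusters. In the cone-like class, where 0 of 26 such genes reached 2-fold, the lowest were Bsg, which encodes the partner protein of monocarboxylate transporters, at 0.64 and Mpc2, a mitochondrial pyruvate carrier gene, at 0.70. Pdha1 and Eno2 were the highest there at 1.77 and 1.71. In Müller glia-like cells 3 of 32 were 2-fold higher and 0 lower, against 10.2% and 4.78% of all genes, with Emb at 2.01 (1.13 to 3.65) beside the Slc16a8 of the 2 pigmented cells, and Pfkfb2 at 0.52 and Pdhb at 0.59 as the lowest. In microglia-like cells 6 of 34 were higher and 5 lower, against 12.6% and 7.21% of all genes. Slc2a6 had the highest ratio at 7.67 (2.58 to 37.6), with 45.7 CPM in MSC-sEV and 5.96 CPM in PBS, and Pgk1 had 2.14 (1.57 to 2.97). Slc2a5 had the lowest at 0.29 (0.21 to 0.40), with 36.6 CPM in MSC-sEV and 127 CPM in PBS, and Aldoc had 0.29 (0.16 to 0.53).

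Hypoxia genes were read beside them from a list of 11. In rod-like cells 6 of 8 counted genes lay above a ratio of 1, with a median log2 ratio of 0.51 beside 0.22 over all genes, and 0 were at least 2-fold higher. In Müller glia-like cells 6 of 9 did, with a median of 0.43 beside 0.14. One of these was Car9, a carbonic anhydrase gene, whose 19 MSC-sEV UMIs lay in 1 cell. In microglia-like cells 5 of 8 did, with a median of 0.12 beside 0.05, and 3 were at least 2-fold higher, against 12.6% of all genes.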

How the data were processed

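The deposited values were raw UMI counts per gene and barcode, made by the authors with Cell Ranger 3.0.2 on build mm10 from 10x 3′ libraries, per the labels. Their annotation release is not given in the sources used here. Aldoa had 2 gene IDs, of which the first was used beside the second with its 1 UMI. A barcode was kept with 500 or more UMIs, 300 or more genes and a mitochondrial share of 15% or less. The MSC-sEV library held 2593 barcodes and 16987131 UMIs, of which 2323 passed, and the PBS library 1676 barcodes and 8439740 UMIs, of which 1347 passed. Scrublet, run at 2% expected, called 6 and 3 doublets, so few that doublets may remain. Cells were clustered with scanpy 1.11.5 (2000 variable genes without the pathway, mitochondrial, ribosomal and sex-linked genes, 30 components, 20 neighbours, Leiden resolution 1.0, leidenalg 0.10.2).

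Clusters were named from 23 marker lists where at least 3 markers were seen in 20% of cells and 2-fold above the other cells. With 1 library per group no test was possible. Sums have exact Poisson intervals, shares exact Clopper-Pearson intervals and ratios exact conditional binomial intervals (scipy 1.17.1). Against 0 counts a floor of 3 counts per class and library was used. The carried level is the rod-like level times the relative level of 8 rod markers. Tested on simulated data, these ratio intervals covered the truth for 96.0% of 10437 genes (rod-like) and 96.6% of 9744 genes (microglia-like). Those data were Poisson counts drawn from class totals, the error that the intervals assume. They had no spread between cells or mice, so they say nothing of such spread. Of true 2-fold changes, 43.8% (microglia-like) to 58.5% (Müller glia-like) came out at 2-fold or more.

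The members and gene lists were chosen with earlier results of these data known. The text names all members, every gene of a member's isozyme family, and otherwise the 2 highest and 2 lowest list genes per class with at least 50 UMIs. Gene names come from the files, and promoter stretches and starts from RefSeq.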

Additional observations from a re-analysis of the deposited data

Results flagged for a closer look

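Gapdh and Ldha had ratios on opposite sides of 1 in microglia-like and rod-like cells. The log2 ratio of MSC-sEV over PBS in microglia-like cells minus that in rod-like cells was 1.27 for Gapdh and 0.84 for Ldha. With 1 library per group this difference between the classes was not tested. In the microglia-like class it rests on different clusters in each library, and both log2 ratios of that class were below 0 without the cells of the highest doublet scores. That of Ldha was below 0 also by marker score and after thinning.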

How the results depend on the processing

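No paired analysis was possible because each group had 1 library. Of the log2 medians, that of rod-like cells stayed between -0.55 and -0.24 and that of Müller glia-like cells between -0.67 and -0.25 over the alternatives to the whole class. That of microglia-like cells, 0.10, lay between -1.16 and 0.22 and changed its sign. In single rod-like clusters, an alternative added after the data were seen, the median lay between -0.45 and -0.31 in 5 of 6 and at -1.71 in cluster 5. The median over all genes lay between 0.02 and 0.10 in those 5 and at -0.60 in cluster 5. Over all alternatives, 34 of 108 differences in isozyme share moved beyond their intervals and 37 of 230 counts moved by more than 1.5 times. In rod-like, cone-like, Müller glia-like and microglia-like cells no counted member reached 2-fold between the libraries, so no 2-fold ratio could reverse. Smaller ratios did change sign, among them those of Gapdh and Ldha in microglia-like cells. The cause of each change below was not tested.

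Counts of members at least 2-fold apart between libraries were 0 in each direction in rod-like, cone-like, Müller glia-like and microglia-like cells. Lower ones became 6 in microglia-like cells without the highest doublet scores and 2 with classes by marker score, 1 in cone-like cells under TMM, and 1 (mean of each cell's CPM) and 2 (thinned to 1000 UMIs) in Müller glia-like cells. Higher ones became 1 in Müller glia-like cells at resolution 0.5, 1 in rod-like cells with classes by marker score, and 2 in cone-like and 1 in Müller glia-like cells with rod RNA taken off. With no count minimum, 1 was lower in rod-like and 1 higher in cone-like cells. At 1.5-fold, lower ones were 3 in rod-like, 2 in cone-like, 3 in Müller glia-like and 2 in microglia-like cells, and 2 were higher in Müller glia-like cells. The median became -0.82 in cone-like cells under TMM and -1.16 in microglia-like cells without the highest doublet scores.

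Between classes, the 1 member higher in rod-like than in Müller glia-like cells became 2 by marker score and by mean CPM, 3 with rod RNA taken off and at 1.5-fold, and 5 with rod-poor glia, an alternative added after the data were seen. The 1 lower became 0 under TMM and 2 with no count minimum and at 1.5-fold. The 0 higher in rod-like than cone-like cells became 1 by mean CPM and at 1.5-fold and 2 with rod RNA taken off. The 1 higher in microglia-like than rod-like cells became 2 with pathway genes among the variable genes, without mitochondrial and ribosomal UMIs, with no count minimum and at 1.5-fold, and 0 after thinning, and the 5 lower became 1 without the highest doublet scores. The 4 higher in Müller glia-like than microglia-like cells became 1 without the highest doublet scores, after thinning and with rod-poor glia, and the 3 lower became 1 after thinning.

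Differences in isozyme share, microglia-like minus rod-like, in percentage points, moved as follows, and all but that of Aldoa in PBS kept their direction. For Hk2 in MSC-sEV, 40.2 became 37.6 (stricter cell filter), 37.4 (resolution 0.5), 36.4 (pathway genes), 33.0 (thinned) and 43.5 (rod RNA taken off). For Hk2 in PBS, 41.5 became 31.8 (stricter filter), 14.4 (doublet scores), 32.7 (pathway genes) and 58.3 (thinned). For Ldha in MSC-sEV, -42.5 became -44.9 (stricter filter and doublet scores alike), -34.3 (resolution 0.5), -46.3 (thinned) and -44.7 (rod RNA). For Ldha in PBS, -57.3 became -51.4 (stricter filter), -25.8 (doublet scores), -49.6 (pathway genes), -48.8 (marker score) and -64.4 (rod RNA). For Slc16a3 in MSC-sEV, 60.8 became 50.006 (stricter filter), 53.7 (doublet scores), 48.7 (pathway genes) and 43.4 (thinned), and in PBS 48.6 became 22.2 (doublet scores). For Slc2a1, -72.0 in MSC-sEV became -81.1 (thinned), and -69.6 in PBS became -45.1 (doublet scores) and -95.2 (thinned). For Pfkfb3, 53.2 in MSC-sEV became 66.2 and 59.2 in PBS became 96.8, both thinned. For Aldoa, 8.52 in MSC-sEV became 7.20 (pathway genes), 9.72 (mean CPM), 7.26 (thinned) and 9.64 (rod RNA), and 3.37 in PBS became 7.57 (thinned) and fell as low as -0.65 (marker score).

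Depth limits the classes with few cells. Microglia-like cells of PBS rest on 40 cells and 503651 UMIs, so that Hk3 had 11 UMIs there, and the shares of Pfkfb and monocarboxylate transporters rest on 77 and 38 UMIs.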

Other observations

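Within the MSC-sEV microglia-like class, 168 cells had an Arg1 UMI, Arg1 being a gene of alternatively activated myeloid cells, and 34 had none, at median depths of 16010 and 9726 UMIs. Aldoa had 409.9 CPM in cells with Arg1 and 291 CPM in cells without, a ratio of 1.41 (1.15 to 1.74), and Gapdh had 1447 and 1191 CPM, a ratio of 1.22 (1.10 to 1.35). The intervals of the other 8 members crossed 1, Hk2 at 0.88 (0.73 to 1.06) and Hk3 at 0.59 (0.34 to 1.08) among them. Cells with Arg1 were deeper, and the part of depth in these ratios was not tested.

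Over 14 class and library sums of at least 30 cells, the genes whose log2 levels were most like those of Hk3 were Egr2 (Pearson r = 0.99), Hmox1 (0.98) and Clec4a2 (0.97), all with a level that follows the leukocyte classes. For Hk2 they were Slc16a6 (0.93), Dusp7 (0.90) and March1 (0.89), for Pfkfb3 Samsn1, Plcl2 and Dopey2 (0.93 each), and for Slc16a3 Esrra (0.94), Tbl1xr1 and Osbpl9 (0.93 each). These sums share their libraries and differ in depth, and the values are a description.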
